A study of Mus musculus with 19 samples.

Results

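The proteasome is the barrel-shaped protease that degrades ubiquitin-tagged proteins in the cytosol and nucleus. Its core particle stacks rings of alpha subunits, which gate the channel, around rings of beta subunits, which carry the proteolytic sites. A regulatory particle caps the barrel: its base holds a ring of ATPases that unfold and thread substrates, and its lid removes the ubiquitin chain. In B cells the same barrel can exchange its catalytic subunits for immunoproteasome forms, which are made at higher levels under interferon signalling, and Myc-driven lymphoma cells have a high rate of protein synthesis and turnover. The transcripts described here are the constitutive subunit genes, taken as every gene whose symbol is Psma, Psmb, Psmc or Psmd followed by a number, without the immunoproteasome genes Psmb8, Psmb9 and Psmb10. The rule took 36 of the 21086 genes in the expression table, and all 36 passed the filter on low values.

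Polyadenylated RNA of 19 lymphomas was sequenced. Every mouse carried the Eμ-Myc transgene, which places the oncogene Myc under the enhancer of the immunoglobulin heavy chain, active in B cells. The groups differed in Bptf, which encodes the large subunit of the chromatin remodeller NURF, and in the age at which the tumour appeared. The 6 early-onset wild-type tumours (Bptf+/+; Em-Myc) arose at 9 to 17 weeks and the 5 late-onset wild-type tumours at 28 to 76 weeks. The 4 early-onset tumours with 1 deleted Bptf allele (Bptf+/Δ; Em-Myc, called heterozygous below) arose at 8 to 13 weeks and the 4 late-onset ones at 30 to 66 weeks. Onset class and age cannot be told apart. Each tumour had its own identifier in the labels, and numbers after a group name (as in heterozygous late tumour 2, drawn as HET_late_2) only name libraries. Values are gene read counts divided by 1 factor per library, called normalised read counts below, and depth was 8297856 to 12497732 reads per library.

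The name pattern did not take constitutive subunits alone. Psmb11, the catalytic beta subunit of the thymus form, was low in every library, at 4.45 to 13.7 normalised read counts (median 6.72) in wild-type early tumours and 4.61, 3.06, 8.43, 10.9 and 20.01 in wild-type late ones. Its heterozygous values were 4.66, 6.65, 14.7 and 10.9 early and 8.71, 2.88, 3.15 and 3.01 late, and the groups overlapped. Psma8, the alpha subunit of the testis form, had a mean of 38.2 and was at or below 2.04 in 10 libraries. Psmd5, Psmd9 and Psmd10 encode chaperones that help to assemble the base and leave before the particle is complete. The other 31 members are 14 core subunits (Psma1 to Psma7 and Psmb1 to Psmb7) and 17 subunits of the regulatory particle, and with the chaperones they form the 34 members whose mean was at least 100, called detected below. In bulk RNA, fewer cells of a type and less RNA per cell cannot be told apart.

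Promoter stretches are shown for members around which the comparisons below turn, and for the letters of the antioxidant response element core, TGACNNNGC. The element is bound by NRF1 (gene Nfe2l1), the transcription factor that raises proteasome gene transcription when the protease is inhibited. The sequences are from RefSeq promoters of GRCm38.p6, each running from 250 bases before to 50 bases after a start site, and 29 of the 36 members were in that table. Capitals mark a match to TGACNNNGC on either strand in the first 5 stretches, and a match to CCAAT in that of Psma2. Psmb5 is on the minus strand of chr14:54617996-54618082 and Psmb6 on the plus strand of chr11:70525308-70525356. Psmd9 is on the plus strand of chr5:123228119-123228189, Psmc6 on that of chr14:45329574-45329645, Psmd12 on that of chr11:107479278-107479329 and Psma2 on that of chr13:14613148-14613232.
Psmb5: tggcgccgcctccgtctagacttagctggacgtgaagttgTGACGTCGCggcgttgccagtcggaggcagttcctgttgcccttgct
Psmb6: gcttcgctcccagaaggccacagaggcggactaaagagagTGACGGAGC
Psmd9: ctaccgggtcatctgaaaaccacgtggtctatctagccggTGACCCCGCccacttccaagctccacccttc
Psmc6: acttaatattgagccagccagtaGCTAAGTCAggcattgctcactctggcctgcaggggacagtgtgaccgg
Psmd12: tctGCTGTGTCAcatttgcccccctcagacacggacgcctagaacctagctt
Psma2: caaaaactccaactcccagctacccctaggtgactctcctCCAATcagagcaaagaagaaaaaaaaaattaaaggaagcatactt
Counted from the start site, the match began at −9 in Psmb6, −31 in Psmd9, −47 in Psmb5, −227 in Psmc6 and −247 in Psmd12. Both strands were searched. TGACNNNGC occurred in 5 of the 29 member promoters (17.2%), which are those shown, against 13.99% of 27025 genes with a promoter. CCAAT occurred in 12 of 29 (41.4%, against 41.1%) and the E-box CACGTG, the letters bound by Myc, in 2 of 29 (6.90%, against 8.09%), namely Psma4 and Psmd9. The ZNF143-like core occurred in 2 of 29 (6.90%, against 1.095%), namely Psmd10 and Psmd11. In Psmd9 the E-box began at −51, without overlap with the TGACNNNGC match. These are matches of letters and not sites of binding.

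Bptf itself was at 1665 to 2586 in the 11 wild-type libraries and 407.6 to 1573 in the 8 heterozygous ones. Its fitted difference averaged over onset was −0.92 ± 0.19 (log2, SE; limma adjusted p = 0.49). The extent of the deletion is not given in the sources used here. A lower count over the whole gene checks the genotype labels only in part. Among 19 libraries, 2 stood apart. Heterozygous early tumour 2 had summed B cell markers of 598 against 6538 to 37114 elsewhere, summed stroma markers of 788867 against 2882 to 27463, and summed proliferation markers of 5754 against 17265 to 44822. All 8 of its B cell markers were above 0. Heterozygous late tumour 2 had the highest summed macrophage (27135), T cell (2515) and interferon-response (4122) markers and the lowest Bptf value. Over all lists, Cd3e was the only marker at 0 in some library. Medians over the members and over the subunit roles are given with and without these libraries.

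The 34 detected members were all abundant transcripts, and the alpha and beta rings had the highest medians per unit of length. Their mean normalised read counts ran from 275 (Psmd10) to 3285 (Psmd2), with a median of 1699. Levels between genes were compared per kilobase of the longest GENCODE M21 transcript. On that scale the median was 1546 for the alpha ring, 1418 for the beta ring, 947 for the base ATPases, 780 for the lid and 631 for the non-ATPase base subunits, while the assembly chaperones were lowest at 146. Psma6, an alpha ring subunit, ranked first at 2303 and Psmb4, a structural beta subunit, second at 2066. Psmb7, which carries the trypsin-like site, was low among core subunits at 332, against 1230 for Psmb5 (chymotrypsin-like site) and 1629 for Psmb6 (caspase-like site). The longest transcript of Psmb7 has 2849 bases, against 899 for Psmb5 and 966 for Psmb6. Before division by length, the means were 946 for Psmb7, 1105 for Psmb5 and 1574 for Psmb6. Which transcript was expressed was not determined, so the low value of Psmb7 may rest on the length used. Each beta ring holds these 3 subunits in equal number. With merged exons as length, Psma6 still ranked first (1944) and the order of the other genes shifted. The medians were then 782 for the alpha ring, 841 for the beta ring and 730 for the base ATPases, so the gap to the ATPases was small. Non-ATPase base subunits were at 476, the lid at 450 and the chaperones at 79.2.

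Together the 36 members took between 0.330% and 0.716% of the reads of a library. The share was 0.559 ± 0.0569% (SD, n = 6) in wild-type early, 0.558 ± 0.0566% (n = 5) in wild-type late, 0.502 ± 0.125% (n = 4) in heterozygous early and 0.596 ± 0.113% (n = 4) in heterozygous late tumours. The 4 groups overlapped. The lowest share was that of heterozygous early tumour 2 and the highest that of heterozygous late tumour 2. Without them, respectively, the heterozygous means were 0.560% (early) and 0.555% (late), next to the wild-type means.

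**Figure D1:**
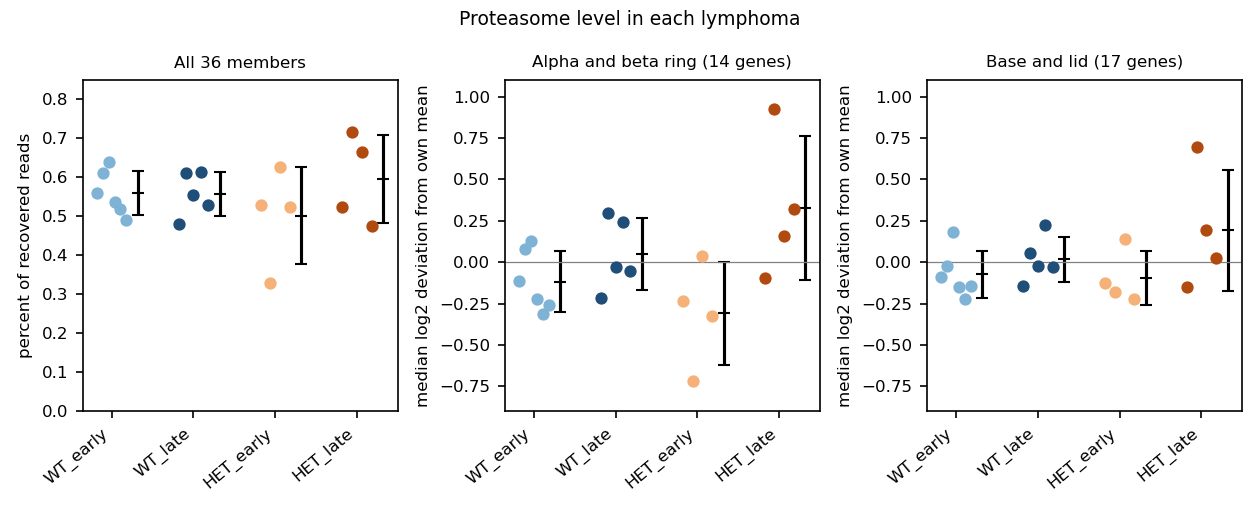
Proteasome level in each lymphoma. The left panel plots the percent of reads on all 36 members, and the others plot the median log2 deviation of the 14 core or the 17 base and lid genes from their own means over 19 libraries; points are libraries and bars are group mean ± SD. Heterozygous late tumour 2 (0.92 in the core panel) and heterozygous early tumour 2 (−0.72) lie farthest from 0.

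The first comparison asked how the transcripts differed between early-onset and late-onset tumours, averaged over genotype. Values were higher in late tumours for 32 of the 36 members, with a median difference of 0.24 on the log2(value + 1) scale, but no single member passed the test in limma or edgeR. These values use 1 factor per library, and shares of reads did not show the rise throughout. By share, the wild-type means were 0.559% early and 0.558% late, and the heterozygous ones 0.502% and 0.596%. Without the 2 libraries that stand apart, the latter were 0.560% and 0.555%. Heterozygous late tumour 4 had a share of 0.476% (0.568% without its 3 most abundant genes). Its detected members lay at a median log2 deviation of 0.18 from their own means. In limma 0 of 36 members reached an adjusted p under 0.05, where 0.437% of all 19927 genes tested did, and the smallest adjusted p was 0.077, for Psma2. At an unadjusted p under 0.05, 14 members were higher and none lower, against 8.8% of all genes higher. edgeR called 0 members (2.7% of all genes) and DESeq2 called 7 (12.2%): Psma1, Psma2, Psmb1, Psmb2, Psmb4, Psmb5 and Psmd5. A positive difference was found for 44% of all genes, whose median was −0.08, and among 4476 genes with a mean of at least 500 the median was 0.05. Without heterozygous late tumour 2 the member median was 0.15, and without both libraries that stand apart it was 0.13. In late tumours the T cell markers were also higher in 7 of 8 genes (median 0.77) and the interferon-response genes in 6 of 8 (0.72), while the endothelial markers were lower in 6 of 7 (−0.89) and the stroma markers in 7 of 8 (−0.84), none with an adjusted p under 0.05; their part in the result was not tested. The early tumours here include heterozygous early tumour 2, which had the highest endothelial and stroma sums of all libraries. With a non-tumour marker score as covariate the member median was 0.23 and Psma2 had an adjusted p of 0.049. Without heterozygous late tumour 1, 3 members were called: Psma2, Psmb1 and Psmb5. The share of all genes called was not computed for the runs with this score or without this library.

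The difference was larger in the core particle than in the cap. All 14 core genes had positive differences, with a median of 0.37 for the alpha and 0.46 for the beta ring, and 10 of the 14 members with an unadjusted p under 0.05 were among them. Base ATPases had a median of 0.13 (6 of 6 positive), non-ATPase base subunits 0.11 (2 of 3), the lid 0.19 (7 of 8) and the assembly chaperones 0.31 (3 of 3). Without both libraries that stand apart, the medians were 0.19 (alpha ring), 0.26 (beta ring), 0.05 (base ATPases), 0.14 (non-ATPase base), 0.09 (lid) and 0.18 (chaperones), and all 14 core genes had positive differences. Psma2, Psmb1 and Psmb5 then had differences of 0.40 ± 0.13, 0.38 ± 0.15 and 0.36 ± 0.13 (limma adjusted p = 0.16, 0.21 and 0.18). The difference between these groups of genes was not tested.

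Psma2, an alpha ring subunit on chromosome 13 (14613240 to 14674236, plus strand, GRCm38), had the smallest p. It was at 1236 to 2062 in the wild-type early tumours (median 1898) and at 1720, 2761, 2131, 2585 and 1911 in the wild-type late ones. Heterozygous early tumours had 1815, 1098, 1843 and 1484, and heterozygous late ones 2016, 3844, 2506 and 2874. Every heterozygous late tumour was thus above every heterozygous early one, whereas the wild-type groups overlapped. The fitted difference was 0.57 ± 0.15 (SE).

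Psmb5 encodes the chymotrypsin-like subunit, the target of bortezomib, and lies on chromosome 14 (54614119 to 54618022, minus strand). Its values ran from 816 to 1247 (median 876) in wild-type early tumours and were 1101, 1342, 969, 1167 and 1156 in wild-type late ones. The heterozygous early values were 837, 788, 989 and 779, and the late ones 942, 2446, 1349 and 1337. Here 1 heterozygous late tumour lay among the early ones. The difference was 0.51 ± 0.15, with an adjusted p of 0.11.

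Psmb1, a structural beta subunit, ran from 1979 to 3206 (median 2256) in wild-type early tumours and was at 2383, 3296, 2594, 3055 and 3134 in wild-type late ones. It was at 2222, 1685, 2807 and 1802 in heterozygous early tumours and at 2455, 5935, 2895 and 4339 in late ones, a difference over both genotypes of 0.55 ± 0.17 (adjusted p = 0.11). The early and late ranges overlapped in both genotypes. Psmb4, another structural beta subunit, ran from 1714 to 3249 (median 1962) in wild-type early tumours and was at 1971, 3047, 2119, 2722 and 2741 in wild-type late ones. Its heterozygous values were 1843, 1362, 2142 and 2138 early and 2105, 5267, 2649 and 3502 late, a difference of 0.52 ± 0.17 (adjusted p = 0.13). The highest early value of Psmb4 came from wild-type early tumour 2, which was above all 5 wild-type late tumours and 2 of the 4 heterozygous late ones.

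Psma1, another alpha ring subunit, ran from 1433 to 2012 (median 1691) in wild-type early tumours and was at 1819, 2099, 1764, 1892 and 1718 in wild-type late ones, which overlapped. Heterozygous early tumours had 1483, 974, 1773 and 1435 and heterozygous late ones 1961, 3059, 1938 and 2197, which did not. The difference was 0.41 ± 0.13 (adjusted p = 0.11).

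The other 2 catalytic subunits differed less. Psmb6 was at 1275 to 1568 (median 1388) in wild-type early tumours, and at 1202, 1988, 1422, 1845 and 1448 in wild-type late ones. In heterozygous tumours it was at 1232, 1440, 1514 and 1126 early and at 1296, 3135, 1863 and 1927 late, a difference over both genotypes of 0.36 ± 0.15 (adjusted p = 0.21). Psmb7 was at 770 to 1013 (median 889) in wild-type early tumours and at 743, 1032, 877, 1132 and 845 in wild-type late ones. It was at 864, 767, 1060 and 765 in heterozygous early tumours and at 882, 1443, 1165 and 1004 in late ones, a difference of 0.20 ± 0.12 (adjusted p = 0.38). Early and late values overlapped for both genes in both genotypes.

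**Figure D2:**
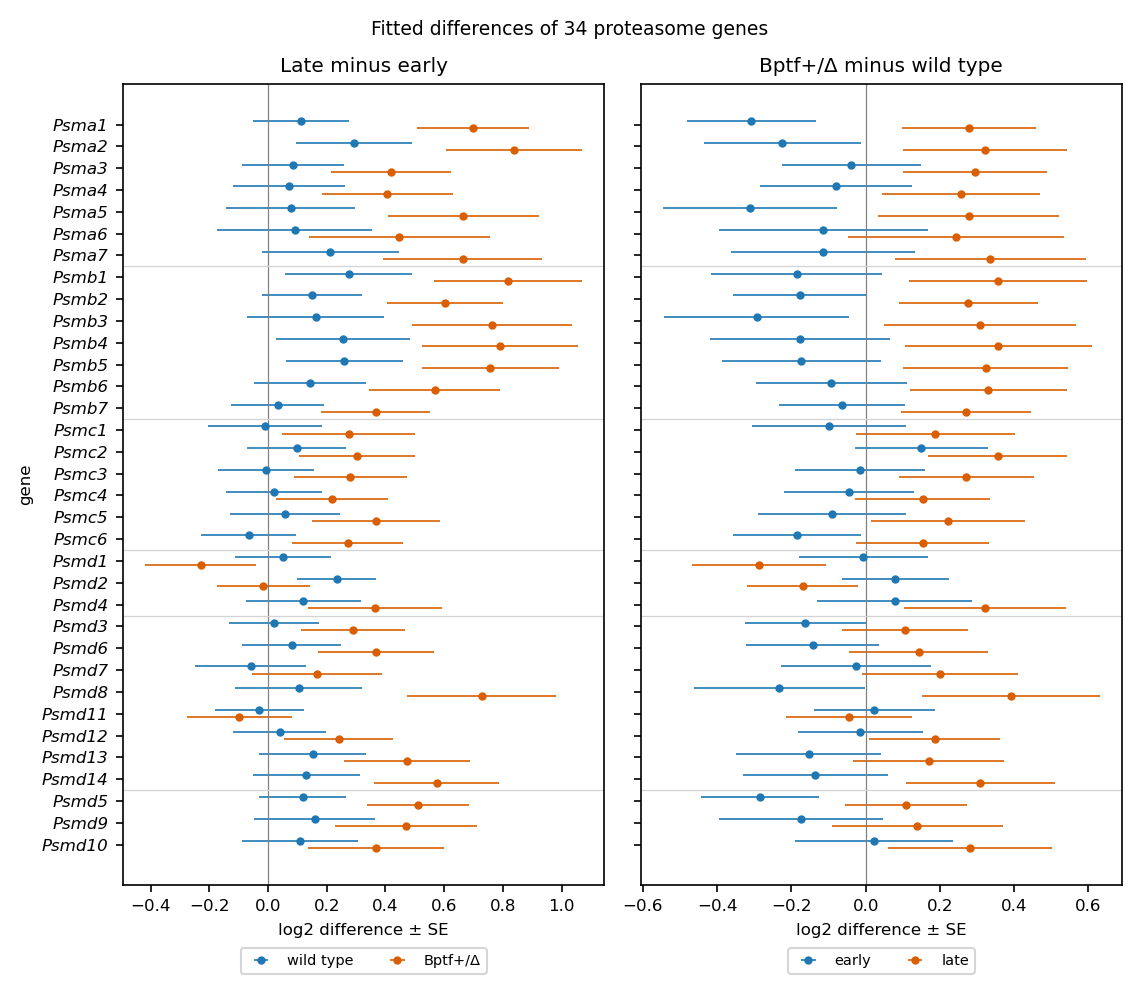
Fitted log2 differences ± SE (limma, log2(value + 1)) of the 34 detected members, late minus early in each genotype on the left and heterozygous minus wild type in each onset class on the right, with horizontal lines between subunit roles. In heterozygous tumours the 14 core genes lie at 0.37 to 0.84 for onset, while in wild-type tumours they lie at 0.03 to 0.29.

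The immunoproteasome subunits that replace these 3 proteins were measured in the same libraries. Psmb8 replaces Psmb5, Psmb9 replaces Psmb6 and Psmb10 replaces Psmb7. Their late minus early differences were 1.37 ± 0.32, 1.06 ± 0.34 and 0.77 ± 0.25, with limma adjusted p-values of 0.056, 0.12 and 0.13. The ratio of Psmb8 to Psmb5 was 1.55 ± 0.445 (SD, n = 6) in wild-type early, 2.22 ± 0.620 (n = 5) in wild-type late, 1.28 ± 0.675 (n = 4) in heterozygous early and 2.54 ± 0.878 (n = 4) in heterozygous late tumours. The groups overlapped within each genotype. A two-sided exact permutation test of the log2 ratio, relabelling onset within genotype and chosen after the values were seen, gave a late minus early difference of 0.86 (p = 0.0115, adjusted p = 0.0420 over 6 such tests). For Psmb10 over Psmb7 the difference was 0.57 (exact permutation p = 0.0140, adjusted p = 0.0420) and for Psmb9 over Psmb6 it was 0.70 (p = 0.112, adjusted p = 0.223). Leaving out single libraries gave adjusted p-values of 0.0219 to 0.152 for Psmb8 over Psmb5 and 0.0251 to 0.152 for Psmb10 over Psmb7. The adjusted p stayed under 0.05 in 8 and 7 of these 19 runs, respectively. Without heterozygous early tumour 2 the differences were 0.55 and 0.37. None of the 3 ratios differed between genotypes past the threshold (log2 differences of −0.19, −0.29 and −0.01, smallest adjusted p = 0.701). The interferon-response markers, summed, were at 991 to 1775 in early tumours and 907 to 4122 in late ones, and their part in the ratios was not tested.

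Within wild-type tumours the onset differences were small. The median over 36 members was 0.10, with 31 positive, against 48.4% positive and a median of −0.02 among all genes (0.03 among those with a mean of at least 500). In limma 0 members were called (0% of all genes), 0 had an unadjusted p under 0.05 (4.85% of all genes), and edgeR and DESeq2 each called 0 (0% and 0.894%). The core median was 0.15 and the regulatory median 0.05, and neither library that stands apart belongs to these groups. Without wild-type late tumour 4 the member median was 0.06. The 5 genes with values above gave 0.29 ± 0.20 (Psma2), 0.28 ± 0.22 (Psmb1), 0.26 ± 0.20 (Psmb5), 0.26 ± 0.23 (Psmb4) and 0.11 ± 0.16 (Psma1). The smallest p belonged to Psmd2, a scaffold of the base that docks ubiquitin shuttle factors, at 0.23 ± 0.13.

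Within heterozygous tumours they were larger, and the comparison leaned on 1 library. The median over the members was 0.39, with 31 positive, against 43.9% positive and a median of −0.12 among all genes (0.09 among those with a mean of at least 500), and 14 members were higher at an unadjusted p under 0.05 (8.42% of all genes). limma and edgeR called 0 (0% of all genes for each tool; smallest limma adjusted p = 0.087, for Psma1), while DESeq2 called 8, the 7 genes above and Psmd8 (12% of all genes). The core median was 0.66 and the regulatory median 0.28. Without heterozygous late tumour 2 the member median was 0.21, and without both libraries that stand apart it was 0.16. The core median was then 0.32, with 13 of 14 positive, and the regulatory median 0.12. Late values lay wholly above early ones for 5 members, Psma1, Psma2, Psma5, Psmb2 and Psmd5, or 5 of 36 against 3.51% of all genes. Differences were 0.84 ± 0.23 for Psma2, 0.82 ± 0.25 for Psmb1, 0.79 ± 0.27 for Psmb4, 0.76 ± 0.23 for Psmb5 and 0.70 ± 0.19 for Psma1. In the same comparison the endothelial markers were lower in 7 of 7 genes (median −1.41) and the stroma markers in 7 of 8 (−0.99), while T cell markers were higher in 8 of 8 (0.88) and interferon-response genes in 6 of 8 (1.22). None had an adjusted p under 0.05. In limma, 5 endothelial genes and 1 stroma gene were lower at an unadjusted p under 0.05. Higher at that threshold were 4 interferon-response genes and 1 T cell gene. The share of all genes lower at that threshold was not computed. The part of these markers in the result was not tested. Heterozygous early tumour 2, with the highest endothelial and stroma sums of all libraries, is among the early tumours here.

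Regulatory subunits that did not follow the core were found in the base and the lid. Psmd1, the other large scaffold of the base, had an onset difference of −0.23 ± 0.19 in heterozygous tumours. Psmd2 had −0.02 ± 0.16 there and Psmd11, a lid scaffold subunit, −0.10 ± 0.18. These values leaned on the libraries that stand apart. In heterozygous early tumour 2 Psmd11 was at 1640, against 1058 to 1145 in the other heterozygous early tumours. Psmd2 was at 3804 there, against 2929 to 3189. Psmd1 was at 1203 in heterozygous late tumour 2, against 1555 to 1824 in the other heterozygous late tumours. Without both libraries 2 of the 3 non-ATPase base subunits had positive differences (median 0.05). Psmd8, a lid subunit, stood nearest to the core genes. It was at 1762 to 3698 (median 2623) in wild-type early tumours and at 2815, 2117, 2997, 3299 and 3573 in wild-type late ones. Its heterozygous values were 2250, 1832, 3133 and 2200 early and 3158, 5693, 3110 and 3821 late, so that 1 late tumour lay below the highest early one. Its difference in heterozygous tumours was 0.73 ± 0.25 (adjusted p = 0.14). Psmd14, the deubiquitinase of the lid, gave 0.57 ± 0.21 (adjusted p = 0.16).

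Whether onset acted differently in the 2 genotypes was tested by the interaction term. Its median over members was 0.33, with 31 positive, against 46.1% positive and a median of −0.07 among all genes (0.07 among those with a mean of at least 500). limma, edgeR and DESeq2 each called 0 members (0%, 0% and 0.641% of all genes). At an unadjusted p under 0.05 limma had 1 member, Psma1, against 6.94% of all genes. The terms were 0.59 ± 0.25 for Psma1 (adjusted p = 0.71), 0.62 ± 0.33 for Psmd8 (0.74) and 0.55 ± 0.31 for Psma2 (0.74). The median fell to 0.15 without heterozygous late tumour 2 and to 0.08 without both libraries that stand apart.

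**Figure D3:**
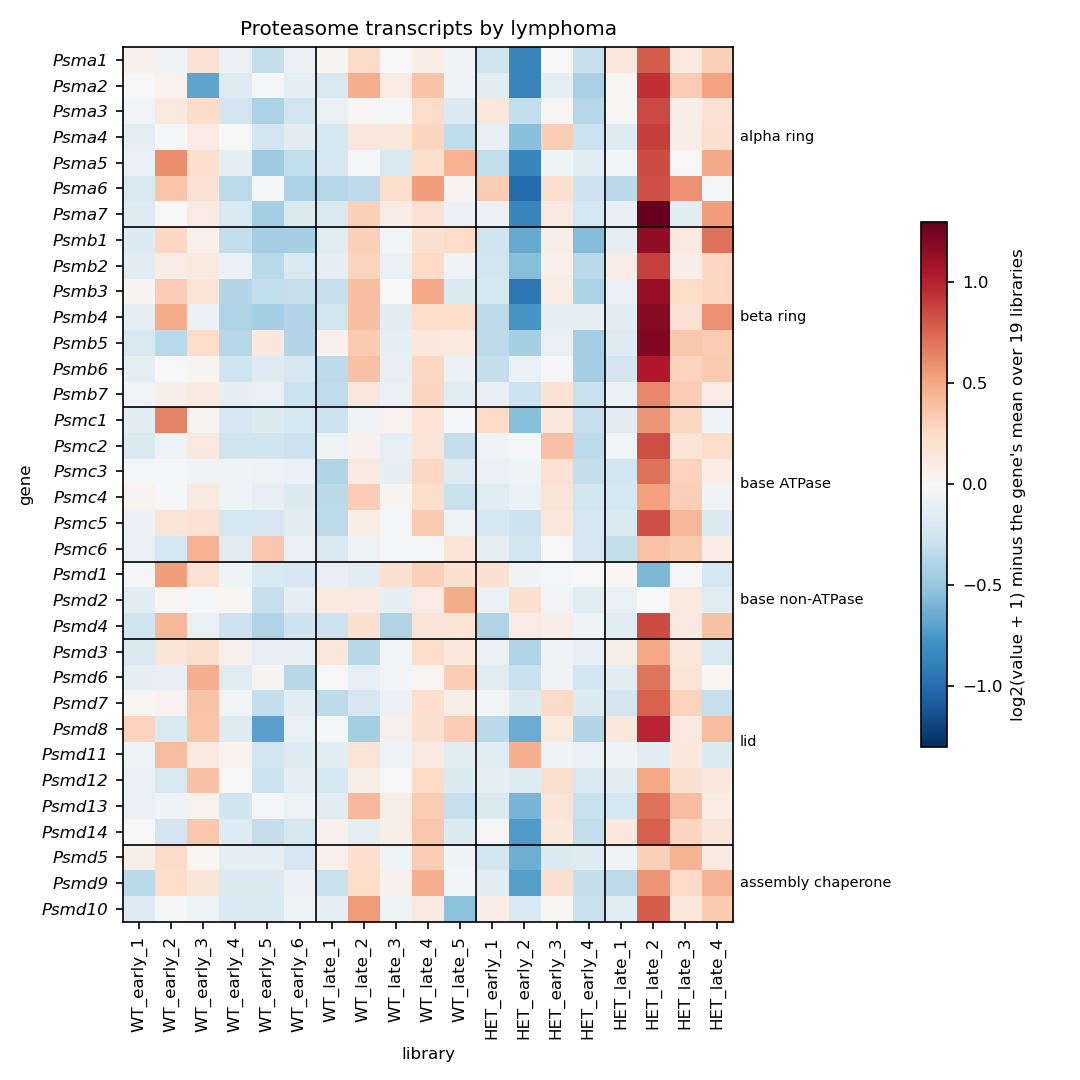
Log2(value + 1) of each detected member minus its mean over 19 libraries (colour scale), with genes in rows by role and libraries in columns by group. The column of heterozygous late tumour 2 is red for all core rows and blue for Psmd1, and that of heterozygous early tumour 2 is blue for most alpha ring, beta ring and assembly chaperone rows.

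The next comparison was between Bptf genotypes. Averaged over onset, heterozygous tumours had positive differences for 26 of 36 members with a median of 0.07, which lay next to the median of all genes (0.06, with 55.8% positive), and −0.13 was the median of genes with a mean of at least 500. No member was called by limma, edgeR or DESeq2 (0 by each, against 0%, 0% and 0.187% of all genes), and 1 had an unadjusted p under 0.05 in limma (9.98% of all genes). The member median was −0.03 without heterozygous late tumour 2 and 0.12 without heterozygous late tumour 1, so its direction rested on single libraries. Without both libraries that stand apart it was 0.01, with a core median of 0.03. Among the marker lists, B cell genes were lower in heterozygous tumours in 8 of 8 (median −1.20). Proliferation genes were lower in 10 of 10 (−0.55). T cell genes were higher in 8 of 8 (1.61), interferon-response genes in 8 of 8 (0.98) and macrophage genes in 8 of 8 (0.67). Stroma genes were higher in 8 of 8 (0.56) and endothelial genes in 7 of 7 (0.48). None had an adjusted p under 0.05, and their part in the result was not tested. Heterozygous early tumour 2 is part of these medians. It had the lowest B cell and proliferation sums and the highest stroma and endothelial sums of all libraries. Psmd12, a lid subunit whose gene starts 347357 bp beyond the end of Bptf on chromosome 11, had a difference of 0.09 ± 0.12.

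Psma8 was that 1 member, and its pattern was of presence or absence. It had 0 reads in wild-type early tumour 1 and wild-type late tumour 4, where a count of 0 allows up to 3 reads, or normalised values up to 2.61 and 3.62. Other wild-type values were 0.854, 0.983, 0.748, 79.2 and 1.84 in early and 0.922, 2.04, 132.5 and 1.18 in late tumours. Heterozygous early tumours had 8.38, 65.1, 122 and 69.9 and heterozygous late ones 46.2, 125, 66.9 and 1.51. Values of at least 8.38 were thus found in 7 of 8 heterozygous and 2 of 11 wild-type tumours, and the genotypes overlapped. The fitted difference was 3.34 ± 1.01 (limma adjusted p = 0.49), which depends on the added 1 for libraries near 0; DESeq2 gave 1.69. Psma7, the ubiquitous alpha subunit whose place Psma8 takes in testis, went with it in some libraries and not in others. Both genes were at the highest value of their group in heterozygous late tumour 2 (Psma7 at 5703, Psma8 at 125) and in heterozygous early tumour 3 (2503 and 122). In heterozygous late tumour 4 Psma7 was at 3374 where Psma8 was at 1.51, and in wild-type late tumour 3 it was at 2470 where Psma8 was at 132.5. No relation between them was tested. The genes are related in sequence and how reads shared by related genes were counted is not stated in the labels.

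**Figure D4:**
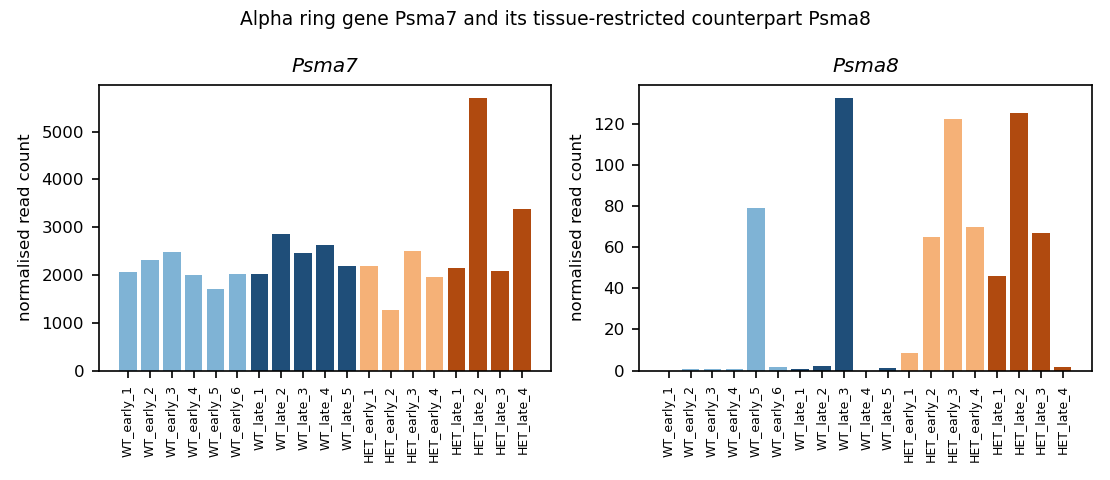
Normalised read counts of Psma7 (left) and Psma8 (right) in each library, coloured by group, with y axes of different scale that start at 0. Psma7 lies between 1275 and 5703 everywhere, while Psma8 is at or below 2.04 in 10 libraries and between 8.38 and 132.5 in 9.

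Genotype differences of the other members with the smallest p were slight. Psmc2, a base ATPase, ran from 1097 to 1530 (median 1266) in wild-type and from 1077 to 2437 (median 1445) in heterozygous tumours, a difference of 0.25 ± 0.13 (adjusted p = 0.50). Psmd4, the ubiquitin receptor of the base, ran from 994 to 1758 (median 1091) and from 991 to 2348 (median 1394), a difference of 0.20 ± 0.15 (0.58). Psmd1 ran from 1553 to 2637 (median 1768) and from 1203 to 2069 (median 1786), a difference of −0.15 ± 0.13 (0.62). Psmc3, another ATPase, ran from 1491 to 2368 (median 1890) and from 1585 to 3192 (median 1988), a difference of 0.13 ± 0.13 (0.67). All 4 overlapped between genotypes. The catalytic subunits gave 0.07 ± 0.15 (Psmb5), 0.12 ± 0.15 (Psmb6) and 0.10 ± 0.12 (Psmb7).

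Split by onset, the genotype medians had opposite signs. In early tumours the member median was −0.11, with 7 positive (55.5% of all genes positive, median 0.09, and −0.16 among those with a mean of at least 500), and all 14 core genes were negative with a median of −0.18. In late tumours it was 0.27, with 32 positive (51.6% of all genes, median 0.02, and −0.09 among those with a mean of at least 500), and all 14 core genes were positive with a median of 0.30. limma and edgeR called 0 members in both (0% of all genes), and DESeq2 called 0 in both (2.8% of all genes early, 0.219% late). Unadjusted p-values under 0.05 were found for 1 member early, Psma8 (11.5% of all genes), and 0 late (6.13%). The early median was −0.02 without heterozygous early tumour 2 and −0.19 without heterozygous early tumour 3, and the late median was 0.07 without heterozygous late tumour 2. Without both libraries the core medians were −0.07 early, with 4 of 14 positive, and 0.10 late, with 14 of 14 positive. In early tumours the B cell markers were lower with heterozygosity in 8 of 8 genes (median −1.77). The proliferation genes were lower in 10 of 10 (−0.83). Endothelial markers were higher in 7 of 7 (0.95), stroma markers in 7 of 8 (0.95) and T cell markers in 8 of 8 (1.26). The B cell, proliferation and stroma medians leaned on heterozygous early tumour 2. Its B cell markers had a mean log2 value of 5.52, against 10.7, 11.6 and 10.8 in the other heterozygous early tumours. Wild-type early tumours were at 10.4 to 11.9. For proliferation it was at 8.86, against 11.4, 11.1 and 11.5 (wild type 11.3 to 11.7). For stroma it was at 13.4, against 9.28, 8.00 and 9.29 (wild type 7.98 to 10.1). In late tumours interferon-response genes were higher in 8 of 8 (1.54) and T cell markers in 7 of 8 (1.96). Macrophage markers were higher in 8 of 8 (0.91). B cell markers were lower in 8 of 8 (−0.81) and proliferation genes in 10 of 10 (−0.33). None of these marker genes had an adjusted p under 0.05, and their part in the results was not tested. These comparisons share libraries with those of onset and with the interaction term, which tests the same contrast of the 4 groups.

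The library with the highest proteasome level was heterozygous late tumour 2. It held the highest of 19 values for 28 of the 34 detected members, where 17.6% of 9454 genes with a mean of at least 100 peaked in it. In normalised read counts, detected members stood at a median of 1.79 times the median of the other 18 libraries. Beta ring genes stood at 2.26 times and alpha ring genes at 1.89 times, with Psma7 highest at 2.63 (5703 against 2167), then Psmb5 at 2.50 and Psmb4 at 2.46. Base ATPases stood at 1.62 and the lid at 1.70 times. The non-ATPase base subunits were split: Psmd4 was at 1.90 times, Psmd2 at 1.02 and Psmd1 at 0.673, its lowest value in any library. All these folds and ranks depend on the factor by which the reads of this library were divided. By share of reads the members were also highest there, but by less. They took 0.716%, against a median of 0.536% over all 19 libraries and 0.665% in heterozygous late tumour 3. Myc was at 3951 in that tumour, within the range of the other libraries, and the macrophage, T cell and interferon sums named above were at their highest; their part in the level was not tested.

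The lowest level was in heterozygous early tumour 2, where the roles stood at different levels. Members stood at a median of 0.755 times the other libraries, with 0.571 in the alpha ring, 0.679 in the beta ring, 0.649 in the assembly chaperones, 0.800 in the lid, 0.922 in the base ATPases and 1.14 in the non-ATPase base subunits. The chaperones thus stood near the core genes. It held the lowest value for 16 of 34 members, 10 of them among the 14 core genes, against 30.7% of all genes with a mean of at least 100. Psma6 stood lowest at 0.493 (1144 against 2320), while Psmb6 was at 1.003 and Psmd11 was at its highest of all libraries, 1640, or 1.45 times the others. These folds and ranks also use normalised read counts. By share of reads the members took 0.330% in this tumour, against a median of 0.536% over all libraries. Nfe2l1 was at 7804 in this tumour against 871 to 1357 in the other 18. The B cell and proliferation sums of this tumour were the lowest of all libraries and its stroma sum was the highest. Their part in these values was not tested.

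Within groups the subunits varied together. The SD of log2 values within groups had a median of 0.285 over detected members, and after the median of the other members in each library was subtracted it was 0.190. It became smaller for 30 of 34 members (88.2%), against 29.8% of 9420 other genes with a mean of at least 100, whose median went from 0.459 to 0.511. Among 4444 other genes with a mean of at least 500 it became smaller for 35.2%, and the median went from 0.419 to 0.463. All 14 core genes became tighter, from a median of 0.319 to 0.187, and 13 of 17 regulatory genes, from 0.250 to 0.196. Psmb7 ended at 0.089 and Psmb2, a structural beta subunit, at 0.091. The 4 exceptions were Psmd1 (0.238 to 0.347), Psmd2 (0.163 to 0.279), Psmd11 (0.213 to 0.306) and Psmd3, a lid subunit (0.213 to 0.223). Psmd1 and Psmd2 are the large scaffolds of the base, and Psmd3 and Psmd11 belong to the lid. Without both libraries that stand apart the median went from 0.234 to 0.168, and again 30 of 34 members became tighter (30.7% of the other genes, median from 0.355 to 0.386). The core then went from 0.236 to 0.159 (14 of 14) and the regulatory genes from 0.222 to 0.179 (13 of 17). The exceptions were then Psmd1, Psmd2, Psmd3 and Psmd6, a lid subunit, and Psmd11 was among those that became tighter. Of detected members Psma6 varied most at the start, at 0.451, and the largest spread of all 36 after subtraction was that of Psma8, at 2.39. The points share libraries and their normalisation, so this is a description.

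**Figure D5:**
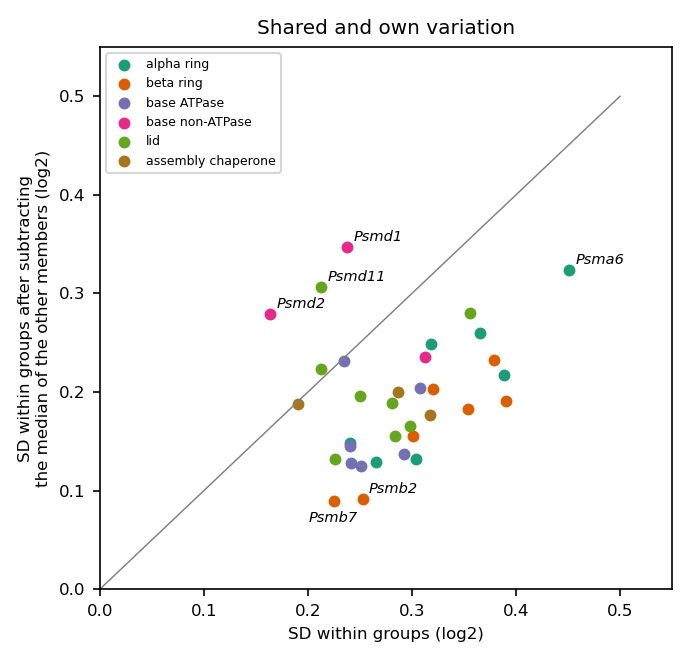
SD within groups of each detected member (x, log2 scale) against the SD after subtracting the median of the other members of the library (y, log2 scale), coloured by role, with the line of equality. Members under the line (30 of 34) varied with the others, and Psmd1, Psmd2 and Psmd11 lie clearly above it.

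Other genes of the pathway were taken from fixed lists and are given for onset averaged over genotype. limma called 0 genes of each list (0.437% of all genes), and 44% of all genes had a positive difference. The lists were not summarised without the 2 libraries that stand apart. The 5 assembly chaperones outside the name pattern were all positive with a median of 0.49, led by Psmg4 (1.02 ± 0.27, adjusted p = 0.076) and Pomp, the maturation factor of the core (0.50 ± 0.17, adjusted p = 0.14). The 4 ubiquitin precursors were all positive with a median of 0.36, and Rps27a, which encodes ubiquitin fused to a ribosomal protein, stood highest at 0.84 ± 0.22 (adjusted p = 0.075). Activators and their inhibitor were positive for 3 of 5 genes (median 0.18), with the interferon-responsive Psme1 at 0.72 ± 0.24 and Psme2 at 0.55 ± 0.23. Other subunits and bound deubiquitinases were positive for 3 of 4 (0.20). Segregase and shuttle factors, which hand substrates to the proteasome, were positive for 6 of 9 (0.04). The NRF1 pathway was positive for 2 of 7 (−0.03), and Nfe2l1 itself gave −0.35 ± 0.27. That value leaned on heterozygous early tumour 2, where Nfe2l1 was at 7804. Its other early values were 871 to 1323 and its late ones 897 to 1357. Split by genotype, the onset differences of this list were positive for 7 of 7 in wild-type tumours (48.4% of all genes). In heterozygous tumours, which include heterozygous early tumour 2, they were positive for 1 of 7 (43.9% of all genes).

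In the authors' deposited table of comparisons 0 members had an adjusted p under 0.05 in each of its 5 comparisons. The share of all genes called there was 0.338% for genotype over all tumours, 1.94% for onset in wild-type and 4.32% for onset in heterozygous tumours, 2.09% for genotype in early and 0.109% for genotype in late tumours. The smallest value in the authors' deposited table was 0.157, for Psmd8 and onset in heterozygous tumours.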

How the data were processed

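Per the labels' protocols, polyadenylated RNA was made into TruSeq libraries and sequenced on a Genome Analyzer IIx. The number of amplification cycles depended on a protocol version that is not given per library, so no within-batch values were computed. The submitters' processing notes name TopHat2 2.1.1, the Cufflinks suite (Cufflinks 2.2.1, Cuffdiff, Cuffnorm), FastQC 0.11.5 and mouse builds mm10 and GRCm38. Strand setting, annotation, and the tool behind each table are not given in the sources used here. Deposited signal values are gene counts that the authors divided by 1 factor per library: 100% of values were whole reads within 0.01 reads, and DESeq2 size factors gave the deposited ones. Log2 fold changes deposited by the authors come with adjusted p-values and are used only where named.

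limma 3.58.1 (R 4.3.3; empirical Bayes with trend) was run on log2(value + 1) of the 19927 genes that reached 1 in 4 or more libraries, as 4 group means in 1 model, with Benjamini-Hochberg adjustment over all genes and a threshold of 0.05. Differences of low genes on that scale depend on the added 1, and for Psma8 the genotype difference was larger than that from DESeq2. Whole reads were also tested with edgeR 4.0.16 (quasi-likelihood, TMM) and DESeq2 1.42.0, and the limma fit was repeated with a pseudocount of 0.1, without the filter, with quantile normalisation, array weights, a non-tumour score, log2 weeks of onset, only the groups compared, and without libraries. The fits were tested on simulated data. No 2 of 171 library pairs agreed within sampling noise (lowest chi-square per gene 18.8). P-values measure the spread between these tumours; reads carry no molecular identifiers, so limits on counts of 0 cover counting error only.

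Members and lists were chosen with earlier results of these data known, so lists are described by counts and medians. Values in each tumour, or the lowest, median and highest of groups above 5, are given for the catalytic and tissue-restricted subunits and for the 5, 5 and 3 members with the smallest p for onset, genotype and interaction; members of extreme spread are named with their SD, and other genes named were chosen after their values were seen. Coordinates and lengths are from GENCODE M21 (GRCm38). Psmb7, Psmc3 and Psmd13 overlap expressed genes on the other strand (Nek6, Slc39a13 and Sirt3), whose reads may be mixed with theirs.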

Additional observations from a re-analysis of the deposited data

Results flagged for a closer look

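In groups of 4 to 6 tumours, 13 of 144 sets of member values held a library farther from the rest than Dixon's 95% limit allows, where chance gives about 1 in 20. Only 2 of these concerned the libraries with the highest and lowest member levels: Psma3 was at 3570 in heterozygous late tumour 2, against at most 2240 in its group, and Psmd11 was at 1640 in heterozygous early tumour 2, against at most 1145.

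Wild-type early tumour 2 stood above its group for 3 genes, with Psmb4 at 3249, Psmc1 at 2794 and Psmd4 at 1758. Wild-type early tumour 3 was low for Psma2, at 1236 against at least 1772 in the others, and high for Psmd12, at 1521. Heterozygous early tumour 3 was high for Psmc5, at 1746, and for Psmd12, at 1360.1. Wild-type late tumour 5 was high for Psmd6, at 1333.

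Among the tissue-restricted genes, Psma8 was at 79.2 in wild-type early tumour 5 and at 132.5 in wild-type late tumour 3, where the other wild-type tumours did not exceed 2.04. Psmb11 was at 8.71 in heterozygous late tumour 1, against at most 3.15 in its group, a difference of few reads.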

How the results depend on the processing

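For onset averaged over genotype, 0 members were called by limma (0.437% of all genes), 1 with array weights and 1 with the non-tumour score (Psma2 in both), and 7 by DESeq2 (12.2% of all genes). For onset in heterozygous tumours DESeq2 called 8 (12% of all genes). Leaving out single libraries gave 0 to 3 called members for onset averaged over genotype (3 without heterozygous late tumour 1: Psma2, Psmb1 and Psmb5) and 0 to 1 in heterozygous tumours. Shares of all genes called were not computed for the runs with array weights, with the non-tumour score or without single libraries. The interaction median was 0.33, and 0.079 without both heterozygous tumours numbered 2, an alternative chosen after the data were seen. The median level per kilobase was 611 with merged exons and 1012 with the longest transcript. Reversed genotype differences, all without a call, were −0.038 for Psmb5 and −0.016 for Psmb6 without both of those tumours, and −0.054 for Psmb5 without heterozygous late tumour 2 alone (range −0.054 to 0.17). Leaving out single libraries, the log2 ratio differences between genotypes ranged from −0.13 to 0.19 (Psmb10 over Psmb7), −0.32 to 0.12 (Psmb8 over Psmb5) and −0.41 to 0.037 (Psmb9 over Psmb6). Those between late and early ranged from 0.37 to 0.68, 0.55 to 1.02 and 0.37 to 0.93. The causes were not tested. No paired analysis was possible because the replicate numbers follow accession order and the labels pair no tumours. With 4 to 6 tumours a group, differences inside the standard errors given could not be resolved. Larger ones could also go without a call: Psma2, at 0.57 ± 0.15 for onset averaged over genotype, had a limma adjusted p of 0.077.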
